A study of Mus musculus with 16 samples.

Results

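Transcripts of the mitochondrial genome were taken as all rows of the deposited gene table whose gene symbol starts with mt-, which gave 37 of 55421 genes. They comprise 13 protein genes, 2 rRNA genes and 22 tRNA genes, all on chrM. The libraries were poly(A)-selected RNA from livers of male C57BL/6 mice, with 4 libraries in each of 4 groups, named for genotype (control or HIRA KO) and for collection before or after regeneration of the liver. The HIRA protein is a chaperone that deposits the histone variant H3.3 outside replication. In HIRA KO mice the gene was removed either with AAV8 Tbg-Cre in HIRA fl/fl mice or with a CRISPR vector carrying sgHIRA in wildtype mice, and the controls were wildtype mice given AAV8 Tbg-Cre or a CRISPR vector carrying sgRosa26. The Tbg promoter restricts expression to hepatocytes, so all other liver cells keep HIRA. Virus was given at 6 months of age, the liver was partly resected 4 weeks later, and the resected lobes are the samples before regeneration. The remaining lobes were collected 5 days after that, so lobe, way of collection and time change together with regeneration. Each group holds 2 libraries of each deletion approach, but the table columns name only genotype, time and a running number, so neither the approach nor the mouse behind a column is known and the 2 approaches cannot be told apart.

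The mitochondrial genome is a small circle that is transcribed from both strands into long precursors, which are cut at the tRNAs to release mRNAs and rRNAs. Its protein genes encode subunits of complexes I (Nd), III (Cytb), IV (Co) and V (Atp) of the respiratory chain, and all other subunits are encoded in the nucleus. Stretches of mitochondrial DNA have also been copied into nuclear chromosomes over evolution, and reads from such a stretch match both places.

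The library totals ranged from 15103059 to 21738619 counts. Hira itself was at 88 to 113 counts in the control before libraries and 47 to 70 in HIRA KO before, 87 to 131 in control after and 64 to 82 in HIRA KO after, where RNA of cells other than hepatocytes is included. Of the HIRA KO libraries 4 (replicates 1 and 2 before and after) stood apart on the second principal component. Among them the 2 before libraries had the highest summed level of 8 stellate and matrix genes in their group, which ranged from 112 to 484 CPM (counts scaled to a library of 1000000, with TMM factors) in HIRA KO before and from 109 to 131 in control before. No pair of replicates matched within counting noise (the lowest chi-square per degree of freedom over 24 pairs was 8.24). That same-group columns came from separate mice is not stated for each column, so p-values measure the spread between these libraries.

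A run of 6 neighbouring protein genes were almost missing from the count table while being well represented in the FPKM table of the same libraries. These are mt-Co2 (chrM:7013-7696), mt-Atp8 (chrM:7766-7969), mt-Atp6 (chrM:7927-8607), mt-Co3 (chrM:8607-9390), mt-Nd3 (chrM:9459-9806) and mt-Nd4l (chrM:9877-10173), all single-exon genes on the plus strand in GRCm38 (mm10). Apart from most of mt-Atp8, their sequence is repeated on chromosome 1 in a row of annotated pseudogenes. This is shown here for the first bases of mt-Co2, its chromosome 1 copy Gm28661 and its chromosome 2 copy Gm13341, with bases that differ from mt-Co2 in capitals (GENCODE M21 transcripts, 5′ to 3′).
mt-Co2, chrM:7013-7102, plus strand: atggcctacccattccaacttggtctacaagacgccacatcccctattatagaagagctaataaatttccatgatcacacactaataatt
Gm28661, chr1:24615476-24615565, minus strand: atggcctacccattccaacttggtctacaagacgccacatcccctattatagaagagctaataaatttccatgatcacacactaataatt
Gm13341, chr2:22587873-22587962, minus strand: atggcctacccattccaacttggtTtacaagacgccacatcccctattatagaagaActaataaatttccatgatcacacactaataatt

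Gm28661 carries no difference from mt-Co2 over 681 compared bases, whereas the chromosome 2 copy has 2 in the 90 bases shown. Gm10925 matched mt-Atp6 over 678 bases, Gm28437 matched mt-Co3 over 783 bases, Gm10222 matched mt-Nd4l over 294 bases, and Gm28439 matched the first 876 bases of mt-Nd4, each with 0 differences. Gm28438 differed from mt-Nd3 at 1 of 345 bases, T3C counted from the first base of mt-Nd3 with the base of mt-Nd3 given first. That base is in capitals in the starts of both genes.
mt-Nd3, chrM:9459-9518, plus strand: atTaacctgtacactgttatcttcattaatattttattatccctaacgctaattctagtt
Gm28438, chr1:24613060-24613119, minus strand: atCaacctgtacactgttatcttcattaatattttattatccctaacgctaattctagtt

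The 7 annotated copies span chr1:24611535-24616197 on the minus strand and keep the order of the mitochondrial genes. The seventh, Gm29216, matched the last 492 bases of mt-Co1 with 6 differences. No pseudogene is annotated over most of mt-Atp8, but the copies of mt-Co2 and mt-Atp6 lie 233 bases apart on chromosome 1 and the same stretches lie 233 bases apart on chrM. The sequence between them was not analysed here. mt-Atp8 also shares its last 43 bases with mt-Atp6, in capitals in the end of the gene, and mt-Nd4l shares 7 with mt-Nd4, so reads there can be assigned to either gene.
end of mt-Atp8, chrM:7910-7969, plus strand: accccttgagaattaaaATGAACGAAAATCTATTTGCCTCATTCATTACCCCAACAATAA

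To see how far each member shares sequence with nuclear transcripts, every window of 100 bases was looked up on both strands of all nuclear GENCODE M21 transcripts. For mt-Co2, mt-Atp6, mt-Co3, mt-Nd3 and mt-Nd4l, 97.6% to 99.9% of windows occurred exactly in a nuclear transcript. The share was 60.8% for mt-Nd4, 30.8% for mt-Co1 and 3.19% for mt-Nd2. It was 0 for mt-Nd1, mt-Nd5, mt-Nd6, mt-Cytb, mt-Rnr1 and mt-Rnr2, and also 0 for mt-Atp8. The shares are lower bounds, since only transcript sequence was searched.

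The count and FPKM tables placed these genes very differently. Across the 16 libraries mt-Co2, the second subunit of cytochrome oxidase, had 580 to 3303 counts, whereas mt-Co1, the catalytic subunit encoded next to it, had 263689 to 513857. In FPKM, a level per kilobase, mt-Co2 ranged from 6127 to 8453 and mt-Co1 from 10555 to 18260. mt-Co2 therefore ranked 5 of the 15 protein and rRNA genes by mean FPKM and 10 by mean counts per kilobase. mt-Atp8 ranked 1 by mean FPKM (31202) and 13 by mean counts per kilobase, at 64.8 CPM per kilobase.

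For each gene the counts were scaled to CPM per kilobase of annotated length with the plain library total. This level was divided by the FPKM of that library, so a ratio of 1 means that both values are equal. The gene length behind the FPKM values is not known. Its part in the ratio of short genes such as mt-Atp8 (204 bases) was not tested. The ratio lay between 0.919 and 1.18 in every library for mt-Rnr1, mt-Rnr2, mt-Nd1, mt-Nd2, mt-Co1, mt-Nd5 and mt-Cytb. It was between 0.609 and 0.727 for mt-Nd4, whose first 63.6% is copied, and between 0.678 and 0.903 for mt-Nd6, which is annotated on the minus strand and has no shared window. For the 6 genes it ran from 0.000613 in mt-Atp8 to 0.0381 in mt-Co2. mt-Co1 stayed near 1 although 30.8% of its windows are shared. In CPM per kilobase every library of every one of the 6 genes lay below every library of the 9 others, as the plot of levels by gene shows.

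**Figure D1:**
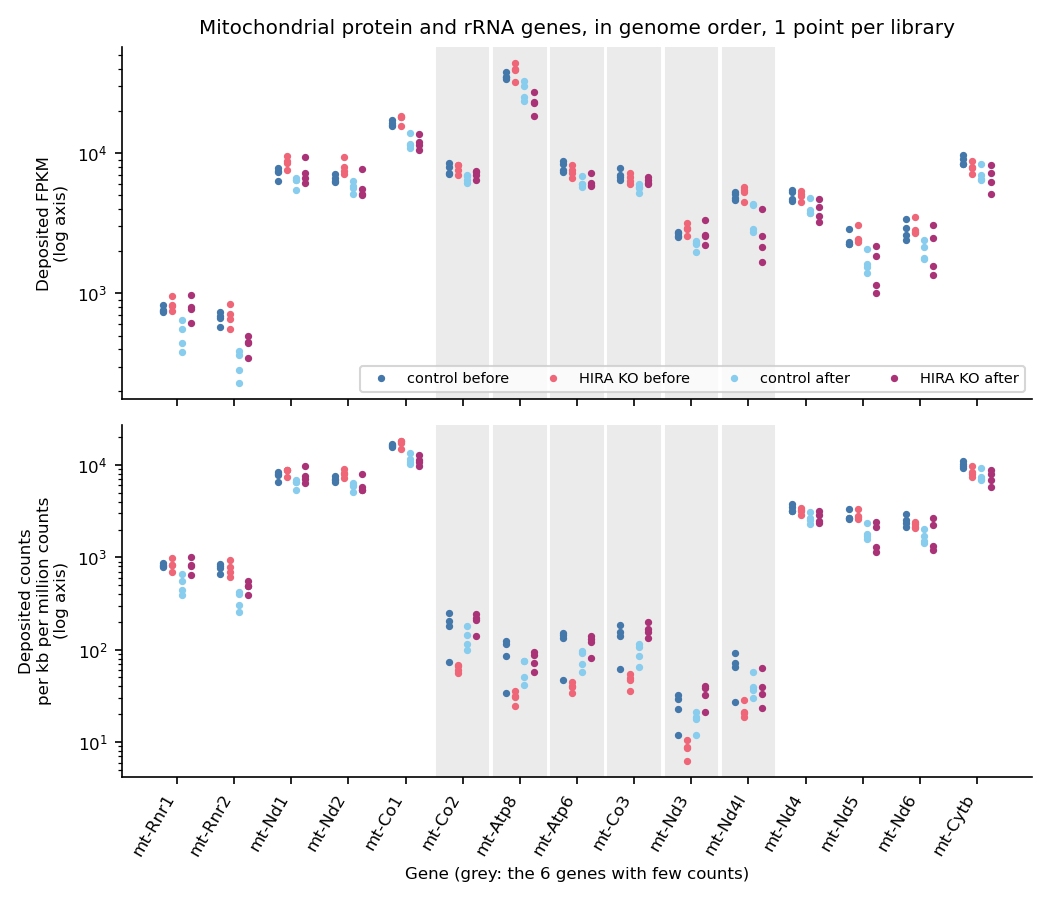
Level of the 13 protein and 2 rRNA genes in genome order, as deposited FPKM (upper panel) and as deposited counts scaled to CPM per kilobase (lower panel), both on log axes, with 1 point per library coloured by group. The 6 genes shaded in grey lie far below their neighbours in counts. In FPKM they sit among them, except mt-Atp8, which lies above every other gene in all libraries.

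Of the 7 copies on chromosome 1, the 5 that match mt-Co2, mt-Atp6, mt-Co3, mt-Nd3 and mt-Nd4l nearly end to end had FPKM values close to those of these genes. The ratio of Gm28661 to mt-Co2 in FPKM was 0.973 to 1.00 over the 16 libraries, that of Gm10925 to mt-Atp6 0.991 to 1.02, and that of Gm28437 to mt-Co3 0.997 to 1.05. It was lower for the copies of parts of genes, at 0.609 to 0.772 for Gm28439 to mt-Nd4 and 0.420 to 0.736 for Gm29216 to mt-Co1. For Gm13341, the chromosome 2 copy that differs from mt-Co2, it was 0.0570 to 0.0794. In counts the copies were low as well: Gm28661 had 550 to 1255 counts, and Gm28437 had 732 to 1638. How each program treated reads that match several places was not stated, and its part in these values was not tested.

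The mitochondrial rows together held 4.14% to 6.97% of all counts, with the 6 genes at the low levels given above. The protein genes held 97.0% of the mitochondrial counts and the rRNA genes 2.90%. The tRNA rows held 0.101%, or 16812 counts over all libraries. tRNAs are short and not polyadenylated as mature molecules. The 8 tRNA genes on the minus strand held 99.3% of the tRNA counts, 14580 of them on mt-Tp, the proline tRNA. Whether the counting used strand is not known, so reads of these rows and of plus-strand precursors that span them cannot be told apart. The 14 on the plus strand, the strand of 12 of the 13 protein genes, held 116 counts. Of these genes 6 had none in any library, which for each allows an expected total of up to 3 counts over all libraries. A total of 24 members had at least 10 counts over all libraries and were tested. The other 13 were all tRNA genes. FPKM values were blank for 21 of the 22 tRNA genes in at least 1 library, in 14 of 16 libraries for mt-Tp. Single tRNA rows are therefore described by counts only.

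The mean share of counts on mitochondrial genes was lower after regeneration in both genotypes, and neither difference passed the adjusted test. In control livers the 4 libraries before had 6.73%, 6.02%, 6.37% and 6.76%, against 4.43%, 5.46%, 4.70% and 4.55% afterwards. In HIRA KO livers it was 5.80%, 6.75%, 6.72% and 6.97% before and 5.07%, 6.01%, 4.52% and 4.14% after. The before and after libraries did not overlap in control, while in HIRA KO the highest after library exceeded the lowest before library. The difference in means was -1.69 percentage points in control, from 6.47% ± 0.348 to 4.78% ± 0.462 (SD, n = 4 each; exact two-sided permutation p = 0.0286, the smallest that 4 against 4 allow). In HIRA KO the difference was -1.63 points, from 6.56% ± 0.518 to 4.93% ± 0.812 (exact permutation p = 0.0571). Between genotypes the share differed by 0.0879 points before (exact permutation p = 0.8) and 0.147 points after (exact permutation p = 0.771). As a percent of summed FPKM the genotype difference was -8.21 points before (exact permutation p = 0.0571). After regeneration it was -1.003 points (exact permutation p = 0.8286). Both had the opposite sign to the counts. The summed FPKM includes the tRNA rows, with blanks set to 0. Adjusted over the 8 permutation tests reported here, the p-values for regeneration were 0.0762 and 0.0914, so none passed 0.05. Even a test at the smallest possible p of 0.0286 was at 0.0762 after adjustment. With 4 against 4 libraries this threshold could hardly be passed, so missing it says little about the share. On that FPKM scale the regeneration difference was -5.96 points in control (exact permutation p = 0.0571). In HIRA KO it was 1.24 points, in the other direction from the counts (exact permutation p = 0.886). Within that sum the tRNA row mt-Ts1 had 6231 to 50499 FPKM in HIRA KO after, on 1 to 4 counts per library. The mean summed FPKM of the 6 genes was 68665 before and 47826 after in HIRA KO, and 65483 and 52106 in control. The part of the tRNA rows in the differences on this scale was not tested.

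**Figure D2:**
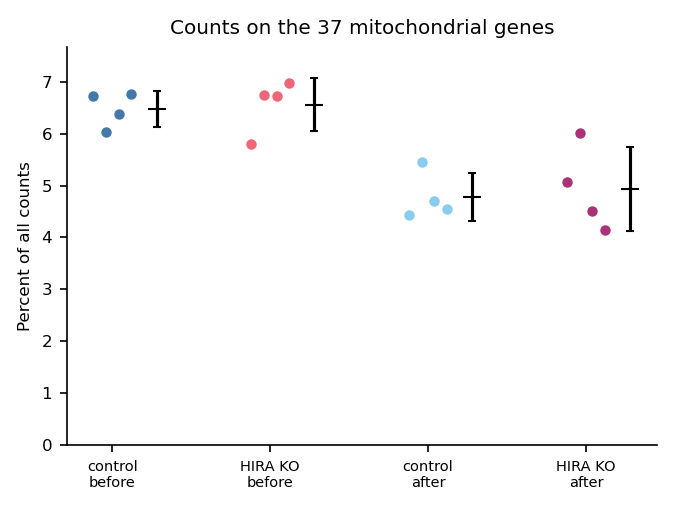
Percent of all counts on the 37 mitochondrial genes by group, with 1 point per library and the mean ± SD of 4 libraries beside the points. The control after libraries lie between 4.43% and 5.46%, below all control before libraries.

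In bulk RNA, fewer cells of a type and less RNA per cell cannot be told apart. All 7 Kupffer and macrophage markers were called higher after regeneration in both genotypes, and their summed level was 128 to 353 CPM in control before, 176 to 220 in HIRA KO before, 571 to 721 in control after and 557 to 838 in HIRA KO after. None of the 7 was at 0. Over all tested genes 10.2% were called with regeneration in control and 12% in HIRA KO. The summed level of 7 lymphocyte markers was 6.81 to 13.2 CPM in control before, 9.08 to 25.6 in HIRA KO before, 18.8 to 24.7 in control after and 21.5 to 30.9 in HIRA KO after, with no overlap in control and 2 markers called higher there. The summed level of 6 cholangiocyte markers was 47.8 to 72.4, 57.7 to 143, 71.4 to 114 and 81.1 to 131 CPM in the same order, with 1 marker called higher in control. The summed level of 10 hepatocyte markers was 113523 to 127328 CPM in control before, 128285 to 174406 in HIRA KO before, 112670 to 162328 in control after and 120151 to 149557 in HIRA KO after, with 2 of the markers called lower after regeneration in control and 3 in HIRA KO. It overlapped between before and after in both genotypes and did not overlap between the genotypes before. Of 7 endothelial markers, 1 was called higher and 2 lower with regeneration in each genotype. The part of cell makeup in the lower mitochondrial share was not tested.

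After against before regeneration in control livers, 4 of the 24 tested members were called (edgeR, Benjamini-Hochberg adjusted p under 0.05), all lower: mt-Rnr1, mt-Rnr2, mt-Co1 and mt-Tc. Over all 23018 tested genes 10.2% were called. All 24 members had negative log2 fold changes, with a median of -0.66 against a median of 0.0029 for all genes. The small-subunit rRNA mt-Rnr1 was at 779, 832, 830 and 812 CPM before and 460, 365, 531 and 589 after, with no overlap (log2 fold change -0.74, SE 0.171, edgeR adjusted p = 0.0098). In these poly(A)-selected libraries the rRNA rows hold only RNA that was captured, so total rRNA was not measured. The large-subunit rRNA mt-Rnr2 showed the greatest difference among the protein and rRNA genes. It was at 1048, 1332, 1353 and 1299 CPM before and 531, 391, 666 and 593 after, again with no overlap (log2 fold change -1.21, SE 0.190, edgeR adjusted p = 0.00091). Both rRNA genes were also called on the FPKM scale with limma on log2(FPKM + 1), at -0.63 and -1.10, where 8.28% of all genes were called. mt-Co1 was at 25555, 24230, 26249 and 28394 CPM before and 17973, 20252, 17614 and 14783 after (log2 fold change -0.56, edgeR adjusted p = 0.033), and this call was lost on FPKM (-0.44, limma adjusted p = 0.469) and when any 1 of 6 libraries was left out, namely each control before library and control after replicates 3 and 4 (edgeR adjusted p up to 0.093). The calls of mt-Rnr1, mt-Rnr2 and mt-Tc were kept without any 1 library. Without control before replicate 2, 7 members were called, with mt-Co2 (-0.74), mt-Atp8 (-0.92), mt-Atp6 (-0.94) and mt-Co3 (-0.86) added and mt-Co1 lost. How many of all genes were called in that fit is not given here, so the rise from 4 cannot be set against it.

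The other members did not pass the test in control. Their log2 fold changes in counts ranged over the protein genes from -0.72 for mt-Nd4l to -0.32 for mt-Nd2. On FPKM they ranged from -0.56 for mt-Nd5 to -0.21 for mt-Nd2. No protein gene was called on FPKM.

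In HIRA KO livers the same comparison gave opposite signs for genes that lie side by side. Of 24 members 12 were called in counts, 8 higher and 4 lower, where 12% of all genes were called. Those lower were mt-Rnr2 (-0.77), mt-Nd2 (-0.52), mt-Co1 (-0.74) and mt-Nd5 (-0.83), with edgeR adjusted p between 0.0072 and 0.043. Those higher were mt-Co2 (1.59), mt-Atp8 (1.23), mt-Atp6 (1.46), mt-Co3 (1.69) and mt-Nd3 (1.83), with edgeR adjusted p between 0.0012 and 0.027, and the tRNA rows mt-Tq (1.69), mt-Tm (3.43) and mt-Tc (1.05). All 5 protein genes called higher are among the 6 genes with few counts, and the remaining one, mt-Nd4l, had 0.73 (edgeR adjusted p = 0.217). The calls of mt-Co2, mt-Atp6, mt-Co3, mt-Nd3, mt-Tm and mt-Co1 were kept without any 1 library. Those of mt-Atp8 and mt-Tc were lost without HIRA KO before replicate 1, 2 or 3 or HIRA KO after replicate 2 or 4 (edgeR adjusted p up to 0.069 and 0.074), that of mt-Tq without HIRA KO before replicate 3 or HIRA KO after replicate 2 (up to 0.056), that of mt-Rnr2 without HIRA KO before replicate 4 (0.052), and that of mt-Nd2 without any 1 of 6 libraries, all but HIRA KO before replicate 1 and HIRA KO after replicate 2 (up to 0.124).

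mt-Co3, the third subunit of cytochrome oxidase, was at 36.8, 28.5, 44.1 and 41.2 CPM in HIRA KO before and at 95.1, 126, 112 and 152 in HIRA KO after. In FPKM the same libraries gave 6031, 6359, 6741 and 7210 before and 6003, 6732, 6429 and 6086 after. The groups were separate in counts and overlapped in FPKM. mt-Nd3, a complex I subunit, was at 3.07, 2.20, 3.06 and 3.95 CPM before and 6.71, 13.5, 10.5 and 13.1 after, from 33 to 63 and 148 to 305 counts. Its FPKM was 2566, 3192, 2909 and 2879 before and 2583, 3325, 2590 and 2202 after, again with overlap.

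On FPKM all 15 protein and rRNA genes had negative log2 fold changes in HIRA KO, with 3 called, all lower: mt-Rnr2 (-0.68), mt-Nd4l (-1.08) and mt-Nd5 (-0.80), where 11.5% of all genes were called. mt-Co2 was at -0.13, mt-Atp8 at -0.76, mt-Atp6 at -0.24, mt-Co3 at -0.06 and mt-Nd3 at -0.12, none of them called. mt-Nd5, a large complex I subunit with no copied window of 100 bases, was called lower on both scales. It was at 4719, 6138, 5074 and 5456 CPM before and 3525, 4270, 2192 and 2035 after, with no overlap (log2 fold change -0.83 in counts, SE 0.217, edgeR adjusted p = 0.019, and -0.80 on FPKM, limma adjusted p = 0.043). Its edgeR call was lost without HIRA KO before replicate 2 or HIRA KO after replicate 3 or 4 (adjusted p up to 0.068). The direction for 6 members thus depended on which deposited table was read, as the plot of fold changes on both scales shows.

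**Figure D3:**
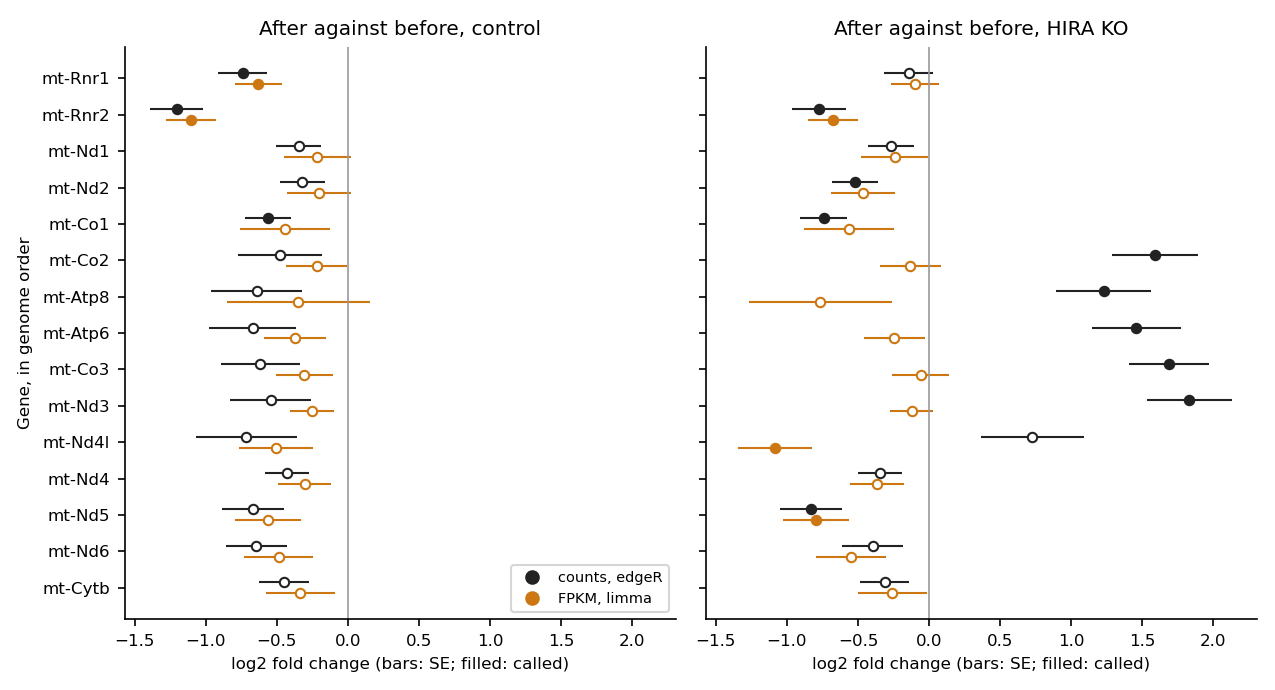
Log2 fold change after against before regeneration for the 15 protein and rRNA genes in control (left) and HIRA KO (right), from counts with edgeR (black) and from log2(FPKM + 1) with limma (orange), with bars for the SE and filled points for genes called at adjusted p under 0.05. In HIRA KO, 5 genes from mt-Co2 to mt-Nd3 are filled at 1.23 to 1.83 in counts and lie at or below -0.06 in FPKM.

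Without the 4 HIRA KO libraries that stood apart, only HIRA KO replicates 3 and 4 remained at each time. In that fit 9 members were called in this comparison, 3 higher and 6 lower, with mt-Nd6 (-0.93) and mt-Tp (-2.36) among the latter. Of the 5 protein genes called higher only mt-Nd3 was still called (1.76, edgeR adjusted p = 0.016), while mt-Co3, mt-Co2, mt-Atp6 and mt-Atp8 had 1.64, 1.65, 1.49 and 1.20 with edgeR adjusted p from 0.053 to 0.205. When only the 8 HIRA KO libraries entered the fit, 6 members were called, all higher. How many of all genes were called in these fits with fewer libraries is not given here, so these counts have no background beside them.

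HIRA KO against control before regeneration gave no call among the 24 members in counts, with 13 at an unadjusted p under 0.05. Over all 23018 tested genes 3031 had an unadjusted p under 0.05, and 0.0391% were called. The 6 genes with few counts had log2 fold changes from -1.61 for mt-Atp6 to -1.51 for mt-Nd3, with edgeR adjusted p from 0.0696 to 0.145. The 9 other protein and rRNA genes had a median of 0.0014. On FPKM the 6 genes ranged from -0.10 to 0.13, none was called, and 0.0304% of all genes were called.

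Whether edgeR called the count difference of the 6 genes depended on 1 control library, while its direction did not. mt-Co2 was at 143, 50.3, 130 and 182 CPM in control before and at 41.8, 38.7, 47.4 and 48.4 in HIRA KO before. Control before replicate 2 lay near the HIRA KO libraries, and the other 3 were at 130 CPM or higher. In FPKM that library had 7151, against 7235 to 8453 in the other 3 and 6937 to 8258 in HIRA KO before. Without control before replicate 2, 7 members were called lower in HIRA KO, namely the 6 genes and mt-Tc, with mt-Co2 at -1.78 (edgeR adjusted p = 0.00091) against -1.52 with all libraries. Over all genes 14 were called in that fit, against 9 with all libraries. Without HIRA KO before replicate 4, mt-Tc was called (-1.76, edgeR adjusted p = 0.048). DESeq2 on all 16 libraries called 8 of 20 members with an adjusted p, all lower, with mt-Co2 at -1.50 (adjusted p = 0.00029), and 375 genes in all.

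**Figure D4:**
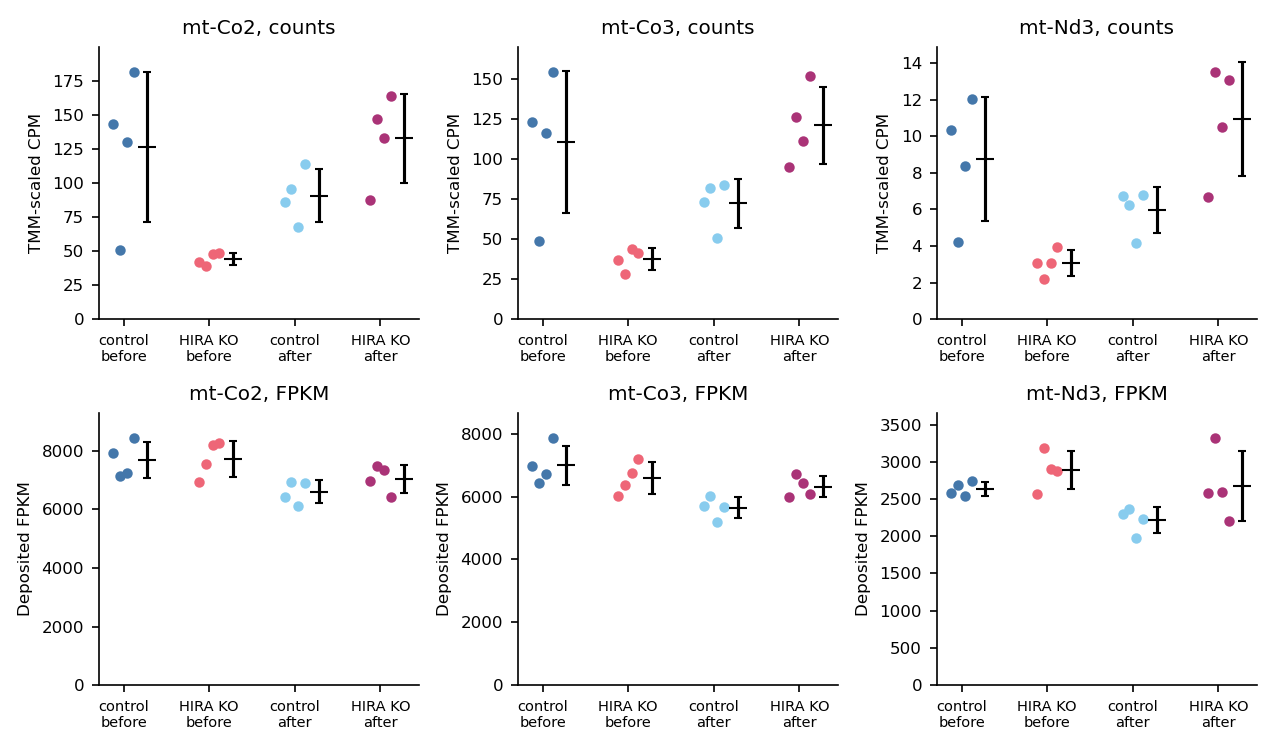
mt-Co2, mt-Co3 and mt-Nd3 by group, as TMM-scaled CPM from the counts (upper row) and as deposited FPKM (lower row), with 1 point per library and the mean ± SD of 4 libraries beside the points. In counts the HIRA KO before libraries are low and 1 control before library lies close to them, and in FPKM the groups before regeneration overlap.

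The part of the FPKM level that was present in the counts, summed over the 6 genes, gives the same pattern as 1 value per library. It was 1.03%, 0.409%, 1.01% and 1.23% in control before and 0.354%, 0.249%, 0.325% and 0.305% in HIRA KO before. After regeneration the control libraries had 0.767%, 0.842%, 0.601% and 1.08%, and the HIRA KO libraries had 0.967%, 1.27%, 1.33% and 1.84%. HIRA KO before was lowest and did not overlap with control before or with HIRA KO after. The differences were -0.611 percentage points against control before (exact two-sided permutation p = 0.0286) and 1.04 points for regeneration in HIRA KO (exact permutation p = 0.0286), both 0.0762 after adjustment over the 8 tests. For HIRA KO against control after regeneration the difference was 0.530 points (exact permutation p = 0.0571), and for regeneration in control it was -0.0969 points (exact permutation p = 0.714). The same quantity over the 9 other protein and rRNA genes was 100.1% to 103% in control before, 92.2% to 99.5% in HIRA KO before, 94.9% to 97.8% in control after and 97.8% to 99.4% in HIRA KO after. It was thus also lower in every HIRA KO before library than in any control before library. Relative to its own level that margin was far smaller than for the 6 genes, but in percentage points it was larger. That difference was not tested. The 6 genes were picked out because of this ratio, so only its difference between groups was tested, and that test was added after the data had been seen. Among the 6 genes mt-Atp8 had the highest mean FPKM (31202). Without it the ratio was 0.775% to 2.15% in control before and 0.498% to 0.663% in HIRA KO before. After regeneration it was then 1.16% to 1.90% in control and 1.65% to 2.94% in HIRA KO. What set the ratio in a library was not tested.

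**Figure D5:**
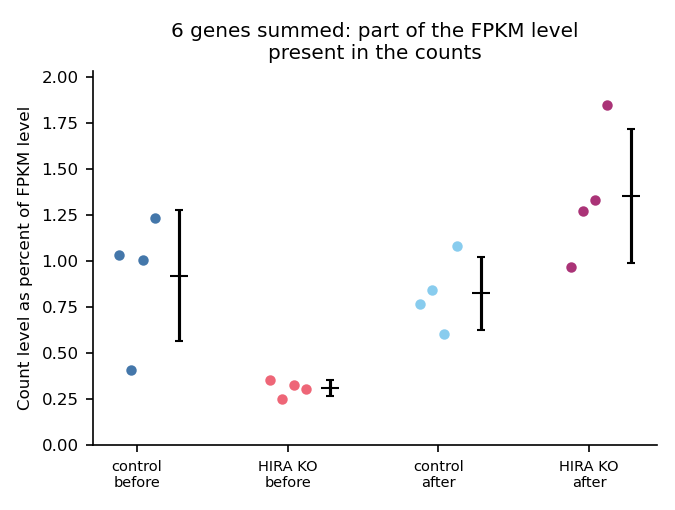
Level of the 6 genes in the count table as a percent of their level in the FPKM table, by group, with 1 point per library and the mean ± SD of 4 libraries beside the points. The highest library is at 1.84%, and the HIRA KO before libraries lie between 0.249% and 0.354%.

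mt-Tc, the cysteine tRNA gene on the minus strand between mt-Nd2 and mt-Co1, was called in both regeneration comparisons, in opposite directions. It holds no window of 50 bases found in a nuclear transcript.
mt-Tc, chrM:5192-5257, minus strand: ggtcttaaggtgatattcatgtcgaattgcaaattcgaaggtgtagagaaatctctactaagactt

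It had 136, 62, 121 and 148 counts in control before, 36, 26, 30 and 40 in HIRA KO before, 38, 38, 50 and 53 in control after and 61, 116, 61 and 112 in HIRA KO after. Control before replicate 2 was the lowest of its group, as for mt-Co2, and HIRA KO before lay below all other groups except for an overlap with control after. The log2 fold change was -1.65 in HIRA KO against control before (SE 0.295, edgeR adjusted p = 0.0535), -1.39 for regeneration in control (adjusted p = 0.0054) and 1.05 for regeneration in HIRA KO (adjusted p = 0.027, edgeR). mt-Tq, the glutamine tRNA, had 13 to 39 counts in control before, 5 to 11 in HIRA KO before, 11 to 17 in control after and 11 to 55 in HIRA KO after. mt-Ta, the alanine tRNA, was not called by edgeR in any comparison (7 to 58 counts per library). mt-Tm, the methionine tRNA, had at most 12 counts in any library, so its change rests on few reads. mt-Tp behaved otherwise: it was at 66.1 to 80.4 CPM in control before, 44.0 to 87.9 in HIRA KO before, 16.5 to 44.3 in control after and 16.3 to 63.4 in HIRA KO after, and edgeR with all libraries called it in no comparison. DESeq2 called it lower after regeneration in control (-1.27, adjusted p = 0.014) and in HIRA KO (-1.11, adjusted p = 0.036). Without HIRA KO after replicate 2 it was called lower after regeneration in HIRA KO (-1.74, edgeR adjusted p = 0.011).

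HIRA KO against control after regeneration gave no call among the members on either scale, with 9 of 24 at an unadjusted p under 0.05 in counts. Over all 23018 tested genes 3629 had an unadjusted p under 0.05 in counts. Of these tested genes 0.491% were called in counts and 0.295% on FPKM. mt-Rnr1 came closest, at 714, 920, 569 and 759 CPM in HIRA KO after against 460, 365, 531 and 589 in control after, where 1 pair of libraries overlapped (log2 fold change 0.61, edgeR adjusted p = 0.0999, and 0.65 on FPKM, limma adjusted p = 0.108). DESeq2 called it (0.63, adjusted p = 0.011), as did edgeR without HIRA KO after replicate 3 (0.74, adjusted p = 0.047). The 6 genes lay between -0.09 for mt-Nd4l and 0.87 for mt-Nd3 in counts.

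The interaction asked whether the change with regeneration differed between genotypes. None of the 24 members was called in counts or on FPKM, and 0% of all genes were called by either, although 1568 and 1837 genes had an unadjusted p under 0.05. The smallest p among the members belonged to mt-Tc (2.44), mt-Nd3 (2.38) and mt-Co3 (2.30), each with an edgeR adjusted p of 0.181. DESeq2 called 7 members, all positive, among 67 genes in all, and edgeR without control before replicate 2 called 6, among 7 genes in all. On FPKM mt-Nd3 was at 0.13 and mt-Co3 at 0.25. The opposite signs of the 6 genes in the 2 genotypes are thus not shown to differ by edgeR on all libraries.

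Nuclear genes that act on the same complexes or on mitochondrial RNA were described from fixed lists. Of 36 nuclear genes for complex I, 11 were called lower and 0 higher after regeneration in control, and of 34 for complexes III to V, 11 were called lower and 0 higher, where 10.2% of all tested genes were called in either direction and 960 of 23018 were called lower. Examples are Ndufb9 (-0.69) and Ndufa6 (-0.65) of complex I and Cox7b (-0.60) of complex IV. Every gene of both lists had a negative log2 fold change, with a median of -0.35 in each. In HIRA KO none was called lower, and Ndufs6 (0.75), Ndufa12 (0.61), Atp5k (0.68) and Atp5l (0.66) were called higher, against 12% of all genes called in either direction. No gene of either list was called between genotypes or in the interaction.

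Over all genes 10.2% were called with regeneration in control and 12% in HIRA KO. The counts in the lists for mitochondrial transcription and RNA were near this background. Those for the 11 regulators and the 9 nuclear copies rest on few genes. Of 20 genes for mitochondrial transcription and genome maintenance, 1 was called lower with regeneration in control, the DNA polymerase gene Polg (-0.29), and 2 in HIRA KO, the transcription factor gene Tfb2m (-0.55) and Mterf3 (-0.45). Of 34 genes for mitochondrial RNA processing, stability and decay, 3 were called lower in control and 4 lower and 1 higher in HIRA KO. Grsf1, which binds mitochondrial RNA, and Fastkd1 were called lower in both genotypes, with Grsf1 at -0.41 for control livers against -0.45 with HIRA KO, and Fastkd1 at -0.44 against -0.52. Slirp, which stabilises mitochondrial mRNAs, was called higher in HIRA KO (0.70). Of 11 regulators of nuclear genes for mitochondria, Ppard was called higher in control (1.40), and Gabpa (-0.45) and Ppara (-0.87) were called lower in HIRA KO. No gene of these 3 lists was called between genotypes. Of the 9 nuclear copies, Gm13340 (-0.61) and Gm10925 (-0.43) were called lower after regeneration in control, while in HIRA KO Gm28439 (-0.71) and Gm10222 (-0.75) were called lower and Gm29216 (0.88) higher, with none called between genotypes.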

How the data were processed

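Poly(A) RNA from 16 liver libraries had been prepared with a directional kit. The authors aligned reads to mm10 with STAR. For counting, the methods and the submitters' processing notes name different programs (HOMER, and HTSeq with Cufflinks). The strand setting and the treatment of reads with several matches are not given in the sources used here. The authors deposited raw counts per gene and FPKM values. The FPKM values are blank in 19824 cells where the count is above 0, and blanks were set to 0. Single tRNA rows were therefore not read on FPKM. All mitochondrial rows, tRNA rows included, enter the percent of summed FPKM. The counts were fitted with edgeR 4.0.16 in R 4.3.3 (robust quasi-likelihood F test, TMM scaling, 4 group means, all 16 libraries, genes with at least 10 counts in total, Benjamini-Hochberg over 23018 genes). The SE of an edgeR fold change was computed as its size divided by the square root of F. FPKM values were fitted with limma 3.58.1 with trend on log2(FPKM + 1), a scale that understates changes of low genes. DESeq2 1.42.0 was an alternative, and an adjusted p it left blank was not counted. Fits and window search were tested on simulated data. Every protein and rRNA gene is named, and a tRNA gene where its mean is at least 1 CPM or it was called. Of each nuclear list, up to 3 genes per direction with the smallest adjusted p may be named. The members and lists were chosen with earlier results of these data known. Gene positions and sequences come from GENCODE M21 (GRCm38), with which 54587 of the 55421 gene IDs agree in version, including all members.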

Additional observations from a re-analysis of the deposited data

Results flagged for a closer look

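Each group of 4 libraries was checked for a library whose gap to the nearest other exceeded, as a part of the group's range, the 95% critical value of Dixon's test. Of 148 groups 9 had one, where chance alone gives about 5%. In counts, mt-Nd1 was lowest in control before replicate 2 (6270 CPM against 8070 to 8088), mt-Tp was lowest in control before replicate 4 (66.1 CPM against 78.5 to 80.4), mt-Nd2 was highest in HIRA KO after replicate 2 (7980 CPM against 5151 to 5438), and mt-Nd4l was highest in control after replicate 2 (16.7 CPM against 9.77 to 10.8). On FPKM, mt-Co1 was lowest in HIRA KO before replicate 1 (15600 against 18074 to 18260), mt-Nd5 was highest in control before replicate 1 (2900 against 2257 to 2330), mt-Nd5 and mt-Nd6 were highest in HIRA KO before replicate 2 (3060 against 2327 to 2444, and 3510 against 2708 to 2832), and mt-Nd4 was highest in control after replicate 2 (4780 against 3772 to 3934).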

How the results depend on the processing

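No paired analysis was possible because the table columns carry no mouse and no replicate number of the labels. Members called between genotypes before regeneration (0) became 8 with DESeq2, and 1 without a filter on low counts, with library totals alone or with scaling that left out the mitochondrial rows, and ranged from 0 to 7 leaving out 1 library (7 without control before replicate 2). After regeneration (0) they became 1 with DESeq2 and ranged from 0 to 1 (1 without HIRA KO after replicate 3). For regeneration in control (4) they became 9 with DESeq2, 8 with only the groups compared, 10 without the 4 HIRA KO libraries that stood apart, and 2 on FPKM with a pseudocount of 1 or 0.1 or with only genes that have an FPKM in every library, and ranged from 3 to 7 (7 without control before replicate 2). For regeneration in HIRA KO (12) they became 6 with only the groups compared and 3 in each FPKM fit, and ranged from 8 to 11 (8 without HIRA KO before replicate 2 or 3 or HIRA KO after replicate 4). In the interaction (0) they became 7 with DESeq2 and 1 without a filter, and ranged from 0 to 6 (6 without control before replicate 2). The number of all genes called also changed between fits and is given above for some of them only. The cause of these differences in calls was not tested. In all 3 FPKM fits the regeneration changes in HIRA KO of mt-Co2 (-0.13), mt-Atp8 (-0.76), mt-Atp6 (-0.24), mt-Co3 (-0.0594), mt-Nd3 (-0.12) and mt-Nd4l (-1.08) had the opposite sign to the counts. Of 1765 single-gene changes over all alternatives, 1637 kept their call or lack of it (93 of them with the opposite sign and no call in either fit), 50 lost the call, 60 gained it and these 18 reversed.

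The control difference in mitochondrial share was -5.96 points as a percent of summed FPKM, tRNA rows included, with exact permutation p = 0.0571. Leaving out 1 library the share difference ranged from -0.0616 to 0.340 points between genotypes before, -0.211 to 0.412 after, -1.91 to -1.57 for regeneration in control and -1.99 to -1.36 in HIRA KO. With 3 against 4 libraries no p under 0.05 can be reached. The ratio over the 6 genes ranged from -0.782 to -0.508, 0.366 to 0.658, -0.267 to 0.00684 and 0.880 to 1.17 points in the same order. The alternatives on blank FPKM values, on the 4 libraries that stood apart and on the ratio were chosen after seeing the data.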
